A study of Mus musculus with 22 samples.

Results

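The difference between embryonic day 7.5 and embryonic day 9.5 was measured in control pools, labelled whole embryo, of 2 inducible mouse lines. The members are the 10 of the 22 sequenced pools that the labels give as controls, without doxycycline. At E7.5 these are 3 pools of the Oct4 line (replicates 1 to 3) and 2 of the Nanog line (replicates 2 and 3), and at E9.5 the same numbers of pools with the same replicate numbers. Oct4-line embryos had the genotype ROSA26tg/+; Oct4tg/+ and Nanog-line embryos ROSA26tg/+; Nanogtg/+, on the C57BL/6 background, from females of 6 to 7 weeks mated with double homozygous males. So every control embryo carried the uninduced transgenes, and none was wild type. A pool held 8 to 12 embryos at E7.5 and 3 embryos at E9.5. The p-values below therefore describe the spread between pools, not between single embryos.

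At E7.5 the mouse embryo is gastrulating: epiblast cells pass through the primitive streak and become mesoderm and definitive endoderm, while visceral endoderm and trophoblast surround the embryo. By E9.5 the embryo has turned and has a beating heart, circulating primitive red cells, a row of somites, a regionalised neural tube and migrating neural crest. The factors that keep the epiblast pluripotent are lost over this interval, and the Hox clusters are opened in order along the body axis.

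The pools held 6.59 to 42.3 M counts at E7.5 and 7.72 to 15.8 M at E9.5, with 18276 to 21262 and 18754 to 19898 genes detected. The first principal component of log2 levels took 76.6% of the variance and separated the stages with no overlap. Levels are CPM (counts per M library counts), scaled between pools by the TMM method. Unless said otherwise, the ± after a CPM level is the SD over 5 pools, the ± after a log2 fold change (E9.5 over E7.5) is its standard error, and a called gene is one whose p in edgeR's quasi-likelihood test, with line as covariate, stayed under 0.05 after Benjamini-Hochberg adjustment. Pool values are given in the order Oct4 replicates 1, 2 and 3, then Nanog replicates 2 and 3. A count of 0 in a pool allows up to 0.463 CPM at E7.5 and 0.368 CPM at E9.5 in the shallowest library (3 counts; counting error only). Gene models under 80 nucleotides summed to 30.5 to 56.6 CPM at E7.5 and 0.537 to 1.67 CPM at E9.5. The libraries of the stages thus differed in short transcripts, the protocol names 2 sequencers without saying which library was read on which, and a technical difference between the stages cannot be told apart from the stage itself.

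Of 16085 genes tested, 11762 (73.1%) were called. Higher at E9.5 were 5961 (37.1%) and lower 5801 (36.1%). At least 4-fold higher were 1093 (6.8%) and at least 4-fold lower 1095 (6.81%), and the median log2 fold change was 0.0067. Scaling by library totals alone raised that median to 0.14, so shifts of that size depend on the scaling. For 9007 genes (56.0%) the 5 pools of one stage did not overlap with the 5 of the other. Since most genes were called, the gene groups below are described by their size of change, and their share of called members is read against these percentages.

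**Figure D1:**
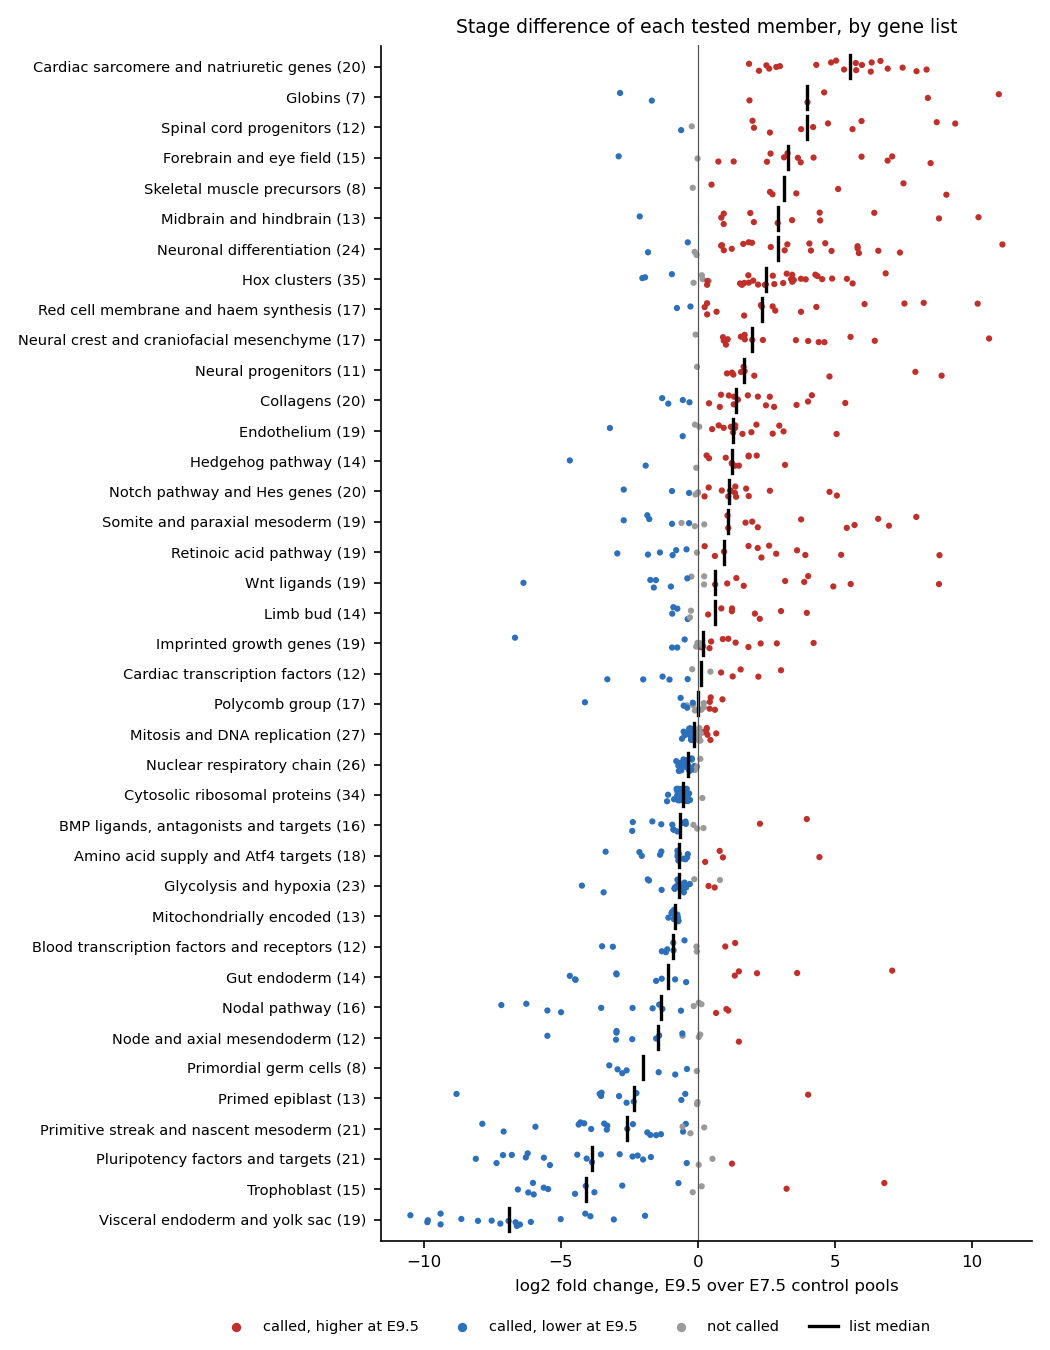
Log2 fold change (E9.5 over E7.5, x axis) of each tested member of the gene lists named at the left (rows, number tested in brackets), ordered by the list median (black bar). Red points were called higher at E9.5, blue points called lower and grey points not called; the visceral endoderm list lies lowest (median -6.91) and the cardiac sarcomere list highest (5.55), and the 5 plotted members with 0 counts at E7.5 stand at fitted values that depend on the prior count.

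Most of the listed genes of pluripotency fell. Pou5f1, which encodes Oct4 (chr17:35642982-35647721, NCBIM37), measured 255, 221, 223, 249 and 225 CPM at E7.5 and 0.842, 0.403, 1.23, 0.928 and 0.988 CPM at E9.5. The stages lay far apart in both lines, and the log2 fold change was -8.103 ± 0.13 (adjusted p = 1.9e-13). Nanog, a homeobox factor of the pluripotent state (chr6:122657507-122664651), measured 21.6, 19.2, 18.4, 23.1 and 17.4 CPM at E7.5 and 0.421, 0.94, 1.103, 2.29 and 1.98 CPM at E9.5 (log2 fold change -3.87 ± 0.24, adjusted p = 1.8e-08). The highest E9.5 levels of Nanog were in the pair of Nanog-line pools. Embryos of that line carry the uninduced Nanog transgene. Counts per gene do not separate its reads from those of the endogenous gene, and its part was not tested. In bulk pools such as these, fewer cells of a type and less RNA per cell cannot be told apart.

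Of the 24 listed pluripotency factors and targets, 21 passed the filter on low counts. Of these, 18 fell, 1 rose, and the median was -3.87. Utf1, a chromatin factor of the epiblast, fell from 28.3 ± 3.92 to 0.237 ± 0.146 CPM (-6.79 ± 0.23), and Zfp42 (Rex1), a marker of the early pluripotent state, from 11.3 ± 1.73 to 0.0748 ± 0.101 CPM (-7.35 ± 0.33). Tdh, the threonine dehydrogenase that pluripotent mouse cells depend on, fell from 108 ± 20.03 to 0.776 ± 0.228 CPM (-7.11 ± 0.14). L1td1, an RNA-binding protein of pluripotent cells, fell from 97.1 ± 9.13 to 1.94 ± 0.176 CPM, while Tfcp2l1 and Esrrb, factors of the naive state, fell to 2.67 ± 0.329 and 0.863 ± 0.208 CPM. The exception was Sox2, which also marks neural progenitors: it measured 54.01, 31.8, 39.7, 47.98 and 41.3 CPM at E7.5 and 101, 104, 98.5, 93.4 and 109.7 CPM at E9.5, rose by 1.25 ± 0.12 (adjusted p = 2e-06), and its stages did not overlap. Sall4, a zinc finger factor that is also used in limb and heart, kept a level of 76.5 ± 8.23 CPM at E9.5 after 352 ± 51.8 CPM at E7.5 (-2.196 ± 0.085). Klf2 (log2 fold change 0.031 ± 0.17, adjusted p = 0.87) and Nr5a2 (0.53 ± 0.25, adjusted p = 0.067) were not called.

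Markers of the primed epiblast divided in the same way. Of 13 tested, 10 fell and 1 rose. Fgf5 fell from 3.93 ± 1.17 to 0.784 ± 0.183 CPM (-2.34 ± 0.28), the kinase gene Pim2 from 102 ± 9.82 to 8.54 ± 0.443 CPM and the receptor gene Epha1 from 77.1 ± 6.12 to 10.5 ± 0.718 CPM. Otx2 and Sox3, which the neural plate also expresses, measured 41.1 ± 9.87 and 25.3 ± 6.23 CPM at E7.5 and 39.95 ± 3.66 and 24.98 ± 7.86 CPM at E9.5 and were not called, with 95% intervals of the log2 difference of -0.24 to 0.22 and -0.31 to 0.25. Foxd3, shared by epiblast and neural crest, rose from 0.242 ± 0.125 to 3.35 ± 0.859 CPM (4.03 ± 0.37).

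**Figure D2:**
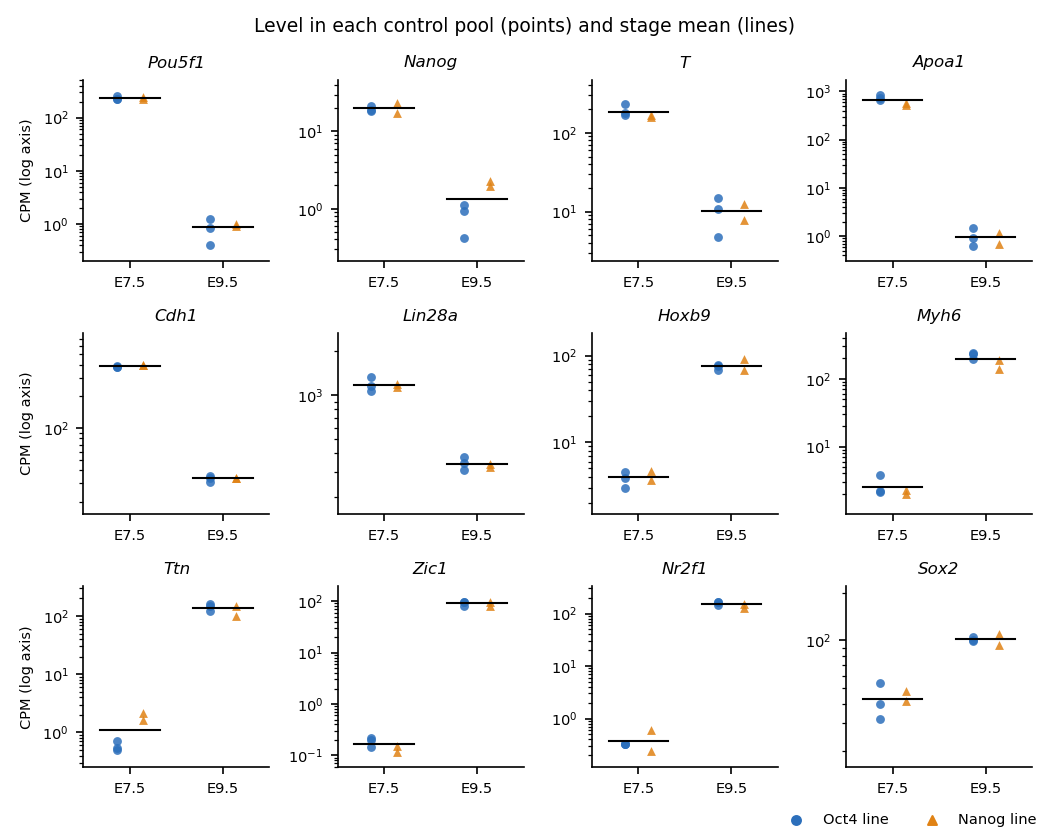
CPM on a log axis of 12 genes in each of the 10 control pools (circles, Oct4 line; triangles, Nanog line; black lines, stage means). The stages do not overlap in any of the 12 genes; Pou5f1 falls from 234 to 0.877 CPM and Zic1 rises from 0.167 to 90.04 CPM.

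The DNA methylation machinery changed composition. Dnmt3b, a de novo methyltransferase, measured 767, 771, 649.6, 702 and 697 CPM at E7.5 and 66.4, 63.5, 66.3, 59.9 and 58.5 CPM at E9.5, a log2 fold change of -3.51 ± 0.062. Its catalytically inactive partner Dnmt3l fell from 38.1 ± 3.42 to 0.0837 ± 0.0521 CPM (-8.81 ± 0.19). A gene on the other strand, Aire, overlaps it, and the strand setting of the libraries is not given in the sources used here. The other de novo enzyme, Dnmt3a, rose from 144 ± 8.45 to 175 ± 4.49 CPM (0.28 ± 0.051), and the maintenance enzyme Dnmt1 from 288 ± 39.3 to 402 ± 9.79 CPM (0.49 ± 0.067). Of the Tet dioxygenases, which oxidise methylated cytosine, Tet1 fell (-0.41 ± 0.075) while Tet2 (1.82 ± 0.15) and Tet3 (0.74 ± 0.084) rose. Uhrf1 and Tdg were not called (0.079 ± 0.051 and -0.062 ± 0.062).

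Genes of developmental timing also moved apart. Lin28a, an RNA-binding protein that blocks maturation of let-7 microRNAs, fell from 1179.8 ± 96.7 to 338 ± 27.4 CPM (-1.805 ± 0.072), while its paralogue Lin28b rose from 106 ± 4.0 to 226 ± 17.6 CPM (1.08 ± 0.049). Hmga2 and Igf2bp3, known targets of let-7, rose by 0.97 ± 0.06 and 0.71 ± 0.058. Nr6a1, a nuclear receptor that represses Pou5f1, fell from 316 ± 45.6 to 146 ± 13.9 CPM (-1.11 ± 0.10). Among 17 Polycomb group genes, 5 rose and 5 fell, with a median of -0.012. Cbx7, the chromodomain subunit of the pluripotent state, fell from 53.5 ± 3.01 to 3.05 ± 0.515 CPM (-4.12 ± 0.10), and Cbx2 rose from 104 ± 10.7 to 159 ± 14.6 CPM (0.62 ± 0.08). Cdkn2a, a locus that Polycomb silences, was at 835 counts over the E7.5 pools and 3 over the E9.5 pools, a level 152-fold (95% interval 51.8 to 738) lower at E9.5, for counting error only.

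Gastrulation genes fell together. Of 21 genes of the primitive streak and nascent mesoderm, 18 fell, 12 of them at least 4-fold, and 0 rose. T (Brachyury), the T-box factor of streak and notochord, measured 168, 233, 180.1, 169 and 159 CPM at E7.5 and 4.73, 10.9, 14.8, 12.7 and 7.905 CPM at E9.5, a log2 fold change of -4.15 ± 0.25. Eomes, required for the mesoderm and endoderm of the streak, measured 32.1, 42.97, 40.6, 30.1 and 27.9 CPM at E7.5 and 0, 0.134, 0.123, 0.186 and 0.185 CPM at E9.5 (-7.87 ± 0.22). Trophoblast genes fell in the same pools, as described below, and the part of that tissue in the fall of Eomes was not tested. Mesp1, a factor of the earliest cardiac mesoderm, fell from 9.53 ± 1.76 to 0.0703 ± 0.0645 CPM (-7.09 ± 0.35), and Mixl1, a homeobox gene of the streak, from 18.5 ± 2.49 to 0.295 ± 0.122 CPM (-5.93 ± 0.19). T was still present at E9.5, at 10.2 ± 3.98 CPM, whereas Eomes, Mesp1 and Mixl1 had means of 0.0703 to 0.295 CPM. Tbx6 and Msgn1, factors of presomitic mesoderm, fell, with log2 fold changes of -3.32 ± 0.19 and -4.35 ± 0.25. Wnt3 (0.23 ± 0.15, adjusted p = 0.19), Gsc (-0.56 ± 0.48) and Snai1 (-0.27 ± 0.13) were not called.

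The Nodal pathway, which induces the streak, was lower at most of its steps. The ligand gene Nodal fell from 1.88 ± 0.363 to 0.155 ± 0.0738 CPM (-3.53 ± 0.34), the coreceptor gene Cfc1 from 15.98 ± 0.659 to 0.207 ± 0.0837 CPM (-6.26 ± 0.19), and Foxh1, the DNA-binding partner of the Smad proteins, from 75.6 ± 9.27 to 2.38 ± 0.415 CPM (-4.99 ± 0.12). The secreted inhibitors Lefty2 (-7.17 ± 0.93) and Cer1 (-5.49 ± 0.18) fell as well. The receptors and Smads did not share this fall: Acvr2a rose from 28.6 ± 1.08 to 61.96 ± 3.81 CPM, Smad3 rose from 62.4 ± 9.52 to 128 ± 5.69 CPM, and Smad2 was not called (0.13 ± 0.10). Of 16 pathway genes tested, 10 fell and 3 rose. In the node and axial mesendoderm list, 8 of 12 fell, among them Noto (-2.99 ± 0.31), Chrd (-2.39 ± 0.18), Foxj1 (-2.97 ± 0.15) and Sox17 (-2.97 ± 0.091). Shh, which the notochord hands on to the floor plate, was the member that rose, from 7.27 ± 1.46 to 20.4 ± 2.15 CPM (1.498 ± 0.13).

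Of the caudal family, which opens the Hox clusters, Cdx1 fell from 105 ± 30.4 to 3.44 ± 0.541 CPM (-4.91 ± 0.25) and Cdx2 from 114 ± 18.2 to 7.46 ± 2.91 CPM (-3.91 ± 0.23). Cdx4 measured 14.8, 9.85, 14.8, 13.3 and 13.1 CPM at E7.5 and 2.42, 7.52, 11.3, 13.3 and 9.63 CPM at E9.5. Its stages overlapped and it was not called (-0.62 ± 0.32, adjusted p = 0.1). Of the germ cell genes tested, 7 of 8 fell, such as Ddx4, an RNA helicase of germ cells, from 10.9 ± 1.76 to 1.15 ± 0.509 CPM.

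Most Hox genes rose. Of 39 Hox genes, 38 matched a single gene ID (Hoxa3 has 2 gene models) and 35 passed the filter. Of these, 28 rose, 21 of them at least 4-fold, and 3 fell. Among those that fell, Hoxb1, an anterior gene of hindbrain patterning, measured 66.98, 56.6, 77.6, 64.6 and 59.8 CPM at E7.5 and 13.9, 15.8, 20.1, 18.1 and 18.2 CPM at E9.5 (-1.93 ± 0.11). Hoxd1 was lower at both stages and fell from 7.903 ± 1.57 to 4.14 ± 1.34 CPM (-0.95 ± 0.19), with overlapping pools. Scaled by exonic length (TPM, computed from the same counts), groups 1 to 4 summed to 149 ± 24.8 TPM at E7.5 and 196 ± 17.9 TPM at E9.5. Groups 5 to 8 summed to 26.9 ± 3.22 and 162 ± 14.01 TPM, and groups 9 to 13 to 28.8 ± 1.82 and 180.5 ± 31.6 TPM. The sum at E7.5 was thus mainly that of groups 1 to 4, whereas the 3 sums were of similar size at E9.5.

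**Figure D3:**
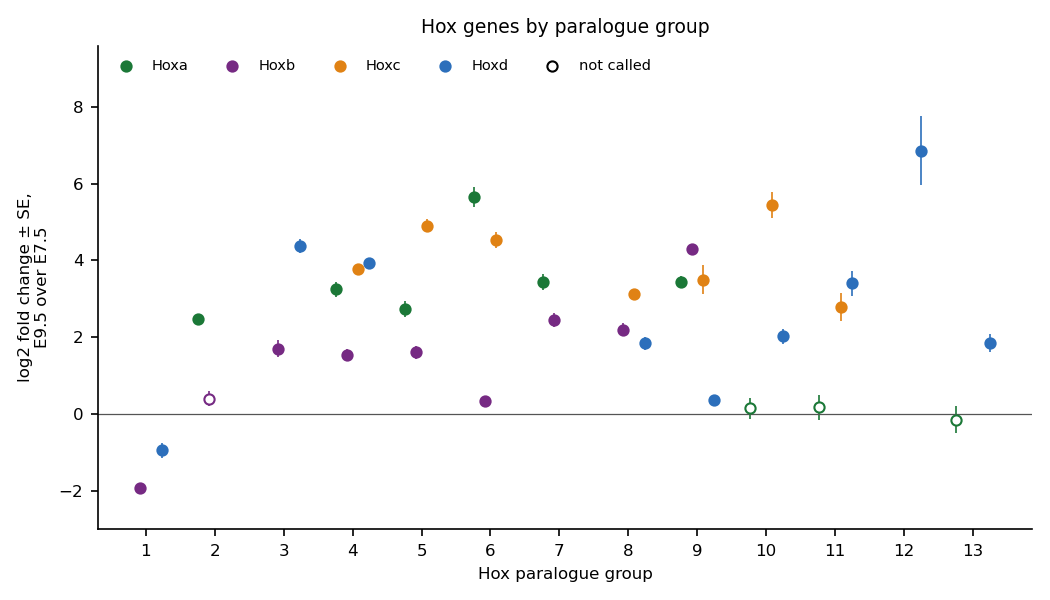
Log2 fold change (E9.5 over E7.5, y axis) with its standard error of 34 tested Hox genes by paralogue group (x axis), coloured by cluster, with open circles for genes not called. Of the called genes plotted, Hoxb1 (-1.93) and Hoxd1 (-0.95) lie below 0, as does Hoxa13 (-0.16), which was not called. The Hoxc genes lie between 2.79 and 5.44, and Hoxd12 was at 0 counts at E7.5, so that its fitted value depends on the prior count.

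In the trunk groups, Hoxb9 measured 4.58, 2.97, 3.91, 4.63 and 3.67 CPM at E7.5 and 78.8, 68.6, 76.7, 90.98 and 67.4 CPM at E9.5 (log2 fold change 4.29 ± 0.13). By length it was the most abundant Hox gene at E9.5, with 84.8 ± 10.5 TPM against 30.6 ± 4.61 TPM for Hoxd4, which came next. Hoxa6 rose from 0.111 ± 0.0839 to 6.03 ± 0.641 CPM (5.65 ± 0.26), Hoxc5 from 0.471 ± 0.105 to 13.2 ± 1.403 CPM (4.899 ± 0.17) and Hoxc6 from 0.569 ± 0.269 to 13.99 ± 1.83 CPM (4.54 ± 0.21). Hoxd3 rose from 2.77 ± 0.851 to 50.9 ± 7.94 CPM (4.37 ± 0.18), although it overlaps Hoxd4 on the same strand and reads could be divided between them. The 4 clusters differed in their medians, from 1.61 in Hoxb to 3.76 in Hoxc, where each of the 7 tested genes rose at least 4-fold. Hoxc summed to 5.37 ± 0.561 TPM at E7.5 and 101.3 ± 14.3 TPM at E9.5.

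The posterior groups were uneven. Hoxc10 measured 0.25, 0.385, 0.202, 0.154 and 0.473 CPM at E7.5 and 6.84, 11.4, 18.9, 18.6 and 11.98 CPM at E9.5 (5.44 ± 0.35), with the lowest E9.5 level in Oct4 pool 1. Hoxd11 rose from 0.789 ± 0.398 to 8.83 ± 2.92 CPM (3.403 ± 0.32), and Hoxd13, a gene of the tail and later of the digits, from 1.45 ± 0.284 to 5.45 ± 1.72 CPM (1.86 ± 0.23). Hoxd12 had 0 counts in the 5 E7.5 pools and 62 over the E9.5 pools, at least 34.1-fold higher against 3 counts over the E7.5 group. Hoxa10 (0.15 ± 0.27), Hoxa11 (0.17 ± 0.33) and Hoxa13 (-0.16 ± 0.35) were not called and overlapped between stages. Hoxa11, which the antisense gene Hoxa11as overlaps, measured 5.45 ± 1.28 CPM at E7.5 and 6.23 ± 3.86 CPM at E9.5. Hoxb13, Hoxc12 and Hoxc13 did not pass the filter.

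Somite genes rose while genes of the segmenting mesoderm fell. Of 19 tested, 11 rose and 5 fell. Pax1, which marks the sclerotome, measured 0, 0.11, 0.0505, 0 and 0.118 CPM at E7.5 and 16.1, 17.3, 16.4, 14.5 and 16.2 CPM at E9.5 (7.97 ± 0.27). Pax3, a factor of the dermomyotome and dorsal neural tube, rose from 1.03 ± 0.334 to 41.2 ± 2.43 CPM (5.43 ± 0.13), and Meox2 from 0.056 ± 0.0551 to 11.2 ± 1.78 CPM (6.97 ± 0.28). Those that fell are Mesp2, Ripply2, Hes7, Dll1 and Dll3, members of the segmentation programme, with Hes7, an oscillating repressor of the clock, falling from 9.42 ± 2.23 to 1.43 ± 0.691 CPM (-2.704 ± 0.27). Lfng, also a clock gene, rose from 13.5 ± 2.51 to 29.1 ± 5.95 CPM (1.11 ± 0.10). The skeletal muscle regulators appeared at low levels. Myf5 had 1 count at E7.5 and 176 at E9.5, a level 322-fold (95% interval 57.1 to 12806) higher for counting error only. Myog had 0 counts at E7.5 and 3.57 ± 0.603 CPM at E9.5, at least 141-fold higher. Myod1 did not pass the filter, with 10 and 1 counts. In the T-box family, 7 of 13 rose and 5 fell. Tbx18, a gene of anterior somites and epicardium, rose from 0.635 ± 0.139 to 16.02 ± 1.12 CPM (4.63 ± 0.14), Tbx5 from 1.61 ± 0.614 to 12.3 ± 1.52 CPM and Tbx2 from 3.703 ± 0.888 to 15.6 ± 4.804 CPM, whereas Tbx3 fell from 76.1 ± 6.17 to 26.6 ± 2.75 CPM (-1.52 ± 0.067). Tbx20 was not called over both lines (-0.21 ± 0.17). In the Nanog-line pools alone Tbx20 was called lower (-0.83, adjusted p = 2e-04), and its difference between lines was called (1.01, adjusted p = 0.0029). Meis1 and Grem1, of the limb list, rose by 2.26 ± 0.10 and 3.98 ± 0.19, while Msx1 and Msx2 fell, with log2 fold changes of -0.75 ± 0.067 and -0.89 ± 0.093. In the kidney list Pax8 rose from 0.195 ± 0.199 to 4.21 ± 0.611 CPM (4.45 ± 0.40), and Lhx1, which the streak and the node also express, fell from 14.6 ± 2.31 to 2.81 ± 0.364 CPM (-2.37 ± 0.13).

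The contractile genes of the heart rose together. All 20 tested members of the list were called higher, 19 of them at least 4-fold, with a median of 5.55, and the list summed to 63.7 to 87.2 CPM in the E7.5 pools and 1175 to 1630.3 CPM in the E9.5 pools. Myh6, the atrial myosin heavy chain, measured 3.86, 2.23, 2.12, 2.31 and 2.01 CPM at E7.5 and 236, 230.4, 194, 191 and 140.1 CPM at E9.5 (6.34 ± 0.18). Ttn, the giant spring protein of the sarcomere, measured 0.715, 0.55, 0.505, 2.16 and 1.66 CPM at E7.5 and 162, 147, 123, 151 and 101 CPM at E9.5 (7.47 ± 0.29). Nppa, the atrial natriuretic peptide, measured 0.0715, 0.055, 0, 0 and 0.236 CPM at E7.5 and 21.9, 20.6, 16.7, 16.4 and 12.8 CPM at E9.5 (8.35 ± 0.34). In each of these genes the lowest E9.5 pool was Nanog replicate 3, and still lay above the highest E7.5 pool. Mybpc3 (7.98 ± 0.26), Csrp3 (6.67 ± 0.42), Myh7 (5.76 ± 0.18) and Actc1 (5.99 ± 0.17) rose to 55.1 ± 8.21, 13.7 ± 1.82, 218 ± 28.1 and 269 ± 34.9 CPM. Myl7, an atrial light chain, was already at 13.6 ± 1.01 CPM at E7.5 and rose to 82.5 ± 11 CPM (2.602 ± 0.10).

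The cardiac transcription factors did not follow. Of 12, 5 rose and 5 fell, with a median of 0.13 over both lines. By line the median was 0.45 in the Oct4 line and -0.50 in the Nanog line. The difference between lines was called for 4 of the 12, against 15.6% of all genes, and each of these had the larger value in the Oct4 line. Hand1, which extraembryonic mesoderm and trophoblast also express, measured 151, 147, 164, 146 and 161 CPM at E7.5 and 14.5, 20.8, 22.7, 14.2 and 7.905 CPM at E9.5 (-3.304 ± 0.21). Gata4 measured 81.4, 97.9, 82.7, 80.8 and 78.3 CPM at E7.5 and 27.9, 24.2, 22.1, 20.7 and 12.2 CPM at E9.5 (-1.99 ± 0.14), and Gata6 fell from 37.1 ± 3.02 to 18.2 ± 3.63 CPM (-1.03 ± 0.12); visceral endoderm also expresses both, and its markers fell as described below, a part in this result that was not tested. Tbx5 rose as given above, Myocd rose from 1.99 ± 0.999 to 8.27 ± 1.62 CPM (2.21 ± 0.30), Mef2c from 11.4 ± 3.53 to 32.1 ± 2.87 CPM (1.56 ± 0.15), and Nkx2-5 from 1.84 ± 0.583 to 4.27 ± 1.703 CPM (1.27 ± 0.30, adjusted p = 0.0022), with overlapping pools. In the within-line contrasts Nkx2-5 changed by 1.77 ± 0.27 in the Oct4 line and 0.25 ± 0.39 in the Nanog line.

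Primitive red cells of the yolk sac enter the embryo between these stages, and the embryonic globin genes rose. The 7 globin genes together took 0.0176% to 0.0732% of the counts in the E7.5 pools and 0.529% to 0.724% in the E9.5 pools. In the mouse the embryonic beta-like genes Hbb-y and Hbb-bh1 and the alpha-like gene Hba-x precede the adult genes Hba-a1, Hba-a2, Hbb-b1 and Hbb-b2. The sequences upstream of genes that rose here are shown because red cell genes are known for short promoter elements bound by GATA, Krüppel-like and NF-Y factors. Each line holds the 250 bases before the RefSeq start of the gene (mouse build GRCm38.p6), 5′ to 3′ on the gene's strand, and capitals mark 3 motifs on either strand, the GATA-type motif GATAA (read as TTATC where it lies on the other strand), the CACCC box (read there as GGGTG) and the CCAAT box (read there as ATTGG).
Hbb-y (chr7:103853208-103853457, minus strand): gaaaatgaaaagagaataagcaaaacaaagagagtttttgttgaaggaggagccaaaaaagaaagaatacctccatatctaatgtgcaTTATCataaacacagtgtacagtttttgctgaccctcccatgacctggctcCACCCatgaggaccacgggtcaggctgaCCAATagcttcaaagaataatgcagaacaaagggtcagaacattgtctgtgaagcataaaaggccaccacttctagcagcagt
Hba-x (chr11:32276350-32276599, plus strand): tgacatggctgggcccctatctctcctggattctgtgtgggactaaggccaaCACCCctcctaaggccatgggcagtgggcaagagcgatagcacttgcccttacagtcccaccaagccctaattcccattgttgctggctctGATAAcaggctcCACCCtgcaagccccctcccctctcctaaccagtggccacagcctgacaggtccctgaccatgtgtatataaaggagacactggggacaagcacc
Hba-a1 (chr11:32283422-32283671, plus strand): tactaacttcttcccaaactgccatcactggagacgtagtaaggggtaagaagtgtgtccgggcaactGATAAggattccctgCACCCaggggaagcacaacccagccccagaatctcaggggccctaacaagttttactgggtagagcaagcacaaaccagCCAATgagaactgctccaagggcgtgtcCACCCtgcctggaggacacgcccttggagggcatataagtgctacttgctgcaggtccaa
Alas2 (chrX:150547167-150547416, plus strand): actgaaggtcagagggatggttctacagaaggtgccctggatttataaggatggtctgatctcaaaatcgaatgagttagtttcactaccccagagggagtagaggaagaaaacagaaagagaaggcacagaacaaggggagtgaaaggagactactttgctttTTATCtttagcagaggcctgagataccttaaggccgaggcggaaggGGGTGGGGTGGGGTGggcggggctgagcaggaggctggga
Rhag (chr17:40810899-40811148, plus strand): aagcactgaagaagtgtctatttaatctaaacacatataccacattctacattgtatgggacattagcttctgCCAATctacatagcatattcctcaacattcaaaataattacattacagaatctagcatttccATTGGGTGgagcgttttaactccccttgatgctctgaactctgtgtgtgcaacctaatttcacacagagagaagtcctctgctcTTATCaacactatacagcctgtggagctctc

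In Hbb-y the CACCC match starts 111 bases and the CCAAT match 83 bases before the start, with a GATAA match on the other strand at 162. Hba-x has GATAA at 107 and CACCC at 198 and 95 bases before the start, and no CCAAT in this window. Hba-a1 has all 3 motifs, with CACCC at 167 and 60, CCAAT at 88 and GATAA at 182 bases. Of 13 globin and red cell genes found in the RefSeq table, 9 have GATAA, 10 CACCC and 7 CCAAT in the window. Of all 32851 promoter windows of the same length, 22.6% have GATAA, 52.0% CACCC and 33.8% CCAAT. A match of 5 letters is a description and not a binding site.

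Hbb-y measured 0.393, 1.35, 1.03, 0.309 and 0.946 CPM at E7.5 and 1592, 2050.3, 1755, 1771 and 2476 CPM at E9.5 (10.98 ± 0.28, adjusted p = 4.8e-10). Hba-x measured 5.898, 3.85, 1.24, 4.47 and 6.62 CPM at E7.5 and 1222, 1654, 1454, 1072 and 1379 CPM at E9.5 (8.395 ± 0.44), and Hbb-bh1 54.04, 110.3, 61.7, 43.2 and 68.2 CPM at E7.5 and 1351, 1698, 1467, 1685 and 2109 CPM at E9.5 (4.61 ± 0.29). Hbb-y was at or below 1.35 CPM in each E7.5 pool. Per length, Hbb-y reached 8307 ± 1372 TPM at E9.5, Hbb-bh1 7701 ± 1208 TPM, Hba-x 4126 ± 696 TPM and Hba-a1 2369 ± 486 TPM. Hba-a1 and Hba-a2 are nearly identical, so reads can be exchanged between them, and their sum is the safer measure. The sum rose from 214.7 ± 115 CPM at E7.5 to 924 ± 163 CPM at E9.5.

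**Figure D4:**
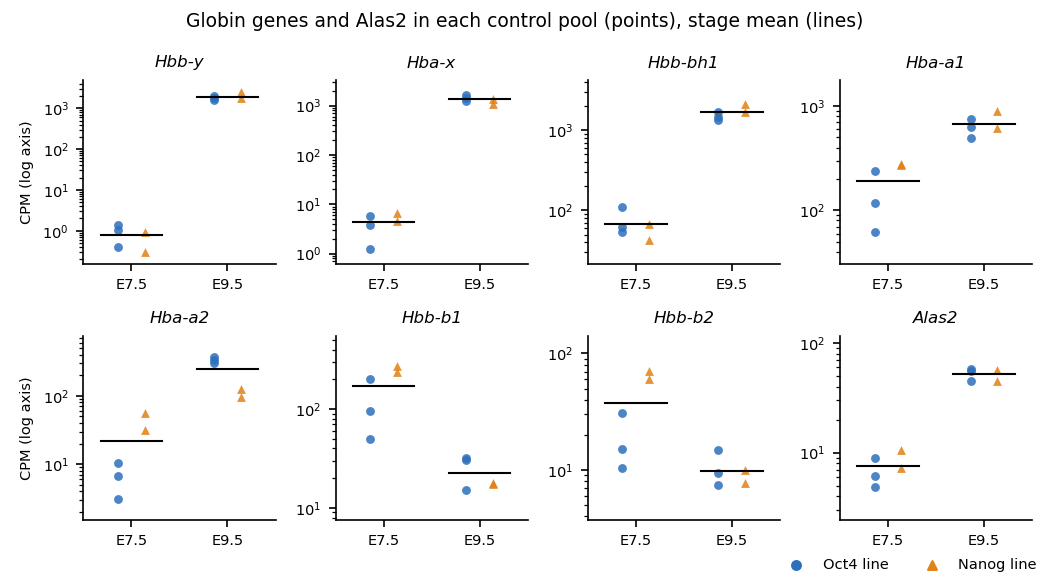
CPM on a log axis of the 7 globin genes and Alas2 in each of the 10 control pools (circles, Oct4 line; triangles, Nanog line; black lines, stage means). Hbb-y, Hba-x and Hbb-bh1 are higher in each E9.5 pool than in any E7.5 pool, Hbb-b1 falls from 172 to 22.6 CPM, and Hbb-b2 overlaps between stages.

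The adult beta globin genes went the other way. Hbb-b1 measured 49.5, 201, 95.8, 238 and 275 CPM at E7.5 and 15.2, 30.9, 31.7, 17.7 and 17.3 CPM at E9.5 (-2.84 ± 0.54, adjusted p = 0.0018), and Hbb-b2 fell from 37.6 ± 27.1 to 9.89 ± 2.98 CPM (-1.68 ± 0.51, adjusted p = 0.018), with overlapping pools. Hbb-b2 was not called in the Oct4 line alone (-0.85, adjusted p = 0.217), with the replicate number as a block (-1.66, adjusted p = 0.0671), or without Oct4 E7.5 replicate 2 (-1.54, adjusted p = 0.0524), Nanog E9.5 replicate 2 (-1.39, adjusted p = 0.0518) or Nanog E9.5 replicate 3 (-1.47, adjusted p = 0.0598). The pair is also nearly identical, and summed to 60.0, 232, 110.8, 309 and 336 CPM in the E7.5 pools. The alpha pair Hba-a1 and Hba-a2 summed to 64.4, 250.1, 124.6, 307 and 327 CPM in the same pools, so both sums were lowest in Oct4 pool 1 and highest in the Nanog pools. The list of maternal markers (decidua, uterine killer cells, neutrophils and lymphocytes) summed to 82.6 to 188 CPM at E7.5 and 6.62 to 46.7 CPM at E9.5. Of its blood cell markers, the T cell gene Cd3e and the neutrophil gene Ngp had 0 counts in both stages, and S100a8 measured 0.86 ± 0.39 CPM at E7.5. Nkg7, Camp, Ltf and Cd79a did not pass the filter on low counts, and Prf1 was tested and not called. The part of maternal blood in the adult globin levels was not tested.

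Genes of the red cell membrane and of haem synthesis rose in 15 of 17 tested members and fell in 2. Slc4a1, the anion exchanger band 3, measured 0, 0.11, 0.0505, 0.617 and 0.236 CPM at E7.5 and 116, 154, 122, 118 and 132 CPM at E9.5 (10.21 ± 0.27). Rhag, of the Rh complex, had 3 counts at E7.5 and 621 at E9.5, a level 379-fold (95% interval 129 to 1844) higher for counting error only. Hemgn rose from 0.165 ± 0.158 to 19.7 ± 2.36 CPM (7.54 ± 0.31), and Alas2, which starts haem synthesis in red cells, from 7.56 ± 2.29 to 52.3 ± 6.46 CPM (2.83 ± 0.18). The ubiquitous haem enzyme gene Urod fell slightly (-0.27 ± 0.076), as did the carbonic anhydrase gene Car2 (-0.76 ± 0.13). Blood transcription factors mostly fell. Runx1, required for definitive blood, measured 21.9, 22.1, 23.1, 22.2 and 26.4 CPM at E7.5 and 2.31, 1.88, 4.29, 0.805 and 1.79 CPM at E9.5 (-3.49 ± 0.26), Gata2 fell from 52.4 ± 7.57 to 6.29 ± 1.96 CPM (-3.101 ± 0.17), and Gata1, the factor of red cell differentiation, from 18.9 ± 3.08 to 8.41 ± 0.877 CPM (-1.17 ± 0.12). Klf1 and Nfe2 rose from 3.96 ± 0.785 to 7.97 ± 1.11 CPM and 2.39 ± 0.584 to 6.12 ± 1.05 CPM. Of the 12 listed factors, 8 fell, 2 rose, and Kit and Epor were not called. Macrophage genes were low, with Csf1r at 4.01 ± 0.859 CPM at E7.5 and 1.26 ± 0.723 CPM at E9.5.

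Endothelial genes rose in 15 of 19 members and fell in 2. Emcn, a surface sialomucin of vessels, rose from 0.713 ± 0.235 to 22.9 ± 3.62 CPM (5.06 ± 0.16), the receptor gene Tie1 from 4.13 ± 1.23 to 33.7 ± 4.31 CPM (3.13 ± 0.16), Plvap from 4.601 ± 1.06 to 35.6 ± 7.02 CPM (2.97 ± 0.13), and Cdh5, the adhesion protein of endothelial junctions, from 18.5 ± 11.3 to 68.9 ± 4.56 CPM (1.95 ± 0.29). Kdr, the receptor that already marks early blood and vessel mesoderm, rose less, from 63.4 ± 14.4 to 89.2 ± 6.91 CPM (0.52 ± 0.11). Etv2, the transient factor that specifies endothelium, fell from 10.5 ± 2.01 to 1.16 ± 0.319 CPM (-3.21 ± 0.21), and so did Sox7 (-0.55 ± 0.11). Flt1 (0.054 ± 0.086) and Egfl7 (-0.10 ± 0.062) were not called.

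Neural genes rose in the lists of all 3 regions of the axis. In the forebrain list 13 of 15 members rose, in the midbrain and hindbrain list 12 of 13, and in the spinal cord list 10 of 12, against 37.1% of all genes. Pax6, a factor of forebrain, eye and neural tube, measured 1.29, 0.825, 0.732, 0.926 and 1.06 CPM at E7.5 and 57.8, 59.4, 58.5, 60.4 and 65.5 CPM at E9.5 (5.97 ± 0.12). Nkx2-1, of ventral forebrain, thyroid and lung, rose from 0.0375 ± 0.0451 to 7.12 ± 1.42 CPM (7.09 ± 0.30), and Lhx2 from 2.74 ± 0.778 to 26.7 ± 4.13 CPM (3.27 ± 0.11). Six6, of the eye field, had 1 count at E7.5 and 357 at E9.5, a level 654-fold (95% interval 117 to 25901) higher for counting error only. Hesx1, a gene of the early anterior neural plate, fell from 5.72 ± 1.43 to 0.763 ± 0.401 CPM (-2.89 ± 0.29). In the midbrain and hindbrain, En2 rose from 0.784 ± 0.258 to 17.1 ± 3.76 CPM (4.46 ± 0.21), Pax5 from 0.0282 ± 0.0268 to 3.596 ± 1.27 CPM (6.44 ± 0.33), and Gbx2, also an early epiblast and streak gene, fell from 52.6 ± 12.6 to 12.1 ± 2.31 CPM (-2.12 ± 0.13).

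In the spinal cord list, Olig2, of motor neuron progenitors, rose to 12.8 ± 1.41 CPM, a level 499-fold (95% interval 170.1 to 2424) higher for counting error only. Dbx1, of intermediate progenitors, reached 15.1 ± 2.56 CPM, a level 895-fold (95% interval 247 to 7399) higher on the same terms. Msx3 rose from 0.393 ± 0.254 to 18.4 ± 2.13 CPM (5.64 ± 0.22) and Nkx6-1 from 1.003 ± 0.363 to 18.9 ± 3.15 CPM (4.21 ± 0.14), while Irx3 fell from 53.3 ± 10.2 to 36.2 ± 13.5 CPM (-0.61 ± 0.10) and Irx5 was not called (-0.22 ± 0.14). Zic1 measured 0.143, 0.22, 0.202, 0.154 and 0.118 CPM at E7.5 and 97.5, 96.1, 80.3, 80.02 and 96.2 CPM at E9.5 (8.896 ± 0.14), and its neighbour Zic4, which overlaps it on the other strand, rose from 0.0282 ± 0.0268 to 12.1 ± 1.65 CPM (7.94 ± 0.25). Zic2 (-0.46 ± 0.095) and Zic5 (-0.60 ± 0.069) fell. The POU class III genes Pou3f2 (6.96 ± 0.19), Pou3f3 (5.85 ± 0.15) and Pou3f4 (7.19 ± 0.46) rose, to 15.8 ± 4.601, 33.1 ± 5.98 and 5.58 ± 1.31 CPM. Of general neural progenitor genes, Nes rose from 80.2 ± 6.51 to 334 ± 24.5 CPM (2.06 ± 0.072) and the Notch target Hes5 from 0.924 ± 0.25 to 22.3 ± 6.83 CPM (4.805 ± 0.23).

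Neuronal genes rose, with 20 of 24 tested members higher and 2 lower. Neurod4, a proneural factor, had 0 counts at E7.5 and measured 15.7 ± 2.92 CPM at E9.5, at least 623-fold higher. Neurog2 rose from 0.255 ± 0.0843 to 14.1 ± 2.04 CPM (5.83 ± 0.17), Nhlh1 from 0.07 ± 0.0948 to 9.29 ± 1.36 CPM (7.38 ± 0.32) and Elavl4, a neuronal RNA-binding protein, from 1.08 ± 0.138 to 28.8 ± 5.49 CPM (4.65 ± 0.14). Tubb3, a tubulin often used to mark neurons, was present at both stages and rose from 19.9 ± 2.46 to 77.8 ± 14.01 CPM (1.98 ± 0.13). Stmn2 was not called, at 19.8 ± 1.63 and 19.2 ± 3.03 CPM (-0.046 ± 0.11). Prph and Ina, intermediate filament genes, fell, with log2 fold changes of -1.82 ± 0.38 and -0.37 ± 0.13. Ina was not called without Nanog E7.5 replicate 2 (-0.33, adjusted p = 0.0604), Oct4 E9.5 replicate 3 (-0.27, adjusted p = 0.0555) or Nanog E9.5 replicate 2 (-0.30, adjusted p = 0.0574). The neural crest list rose in 16 of 17 members and fell in none of them. Tfap2b measured 0.0357, 0, 0, 0.154 and 0 CPM at E7.5 and 41.2, 37.2, 33.9, 35.96 and 41.9 CPM at E9.5, a level 2273-fold (95% interval 629 to 18782) higher for counting error only, and Sox10, which marks migrating crest, measured 0.214, 0.193, 0.227, 0 and 0 CPM at E7.5 and 17.6, 17.7, 15.4, 9.96 and 13.8 CPM at E9.5 (6.46 ± 0.24). Dlx1, of the facial arches, rose from 0.221 ± 0.104 to 8.91 ± 1.75 CPM (5.57 ± 0.25), and Prrx1 and Alx4, of craniofacial mesenchyme, from 9.32 ± 1.94 to 110.1 ± 11.7 CPM and 2.25 ± 0.7 to 45.3 ± 2.89 CPM. Erbb3 was not called (-0.081 ± 0.076).

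Visceral endoderm had the lowest median of the 56 lists, -6.91. All 19 tested members fell, 18 of them at least 4-fold, and none of their pools overlapped between stages. The list summed to 4250.4 to 6591 CPM in the E7.5 pools and 106 to 131 CPM in the E9.5 pools, although both are labelled whole embryo. A difference between the stages in the extraembryonic tissue collected cannot be told apart from development. Its part in the falls of genes in other lists was not tested. Apoa1, an apolipoprotein, measured 662, 857, 739, 585 and 525 CPM at E7.5 and 1.47, 0.94, 0.613, 1.18 and 0.679 CPM at E9.5 (-9.39 ± 0.15). Ttr, transthyretin, measured 366, 472, 410.3, 283 and 287 CPM at E7.5 and 3.37, 2.55, 2.696, 2.599 and 1.17 CPM at E9.5 (-7.21 ± 0.15). Apoc2 fell from 427 ± 102 to 0.252 ± 0.163 CPM (-10.49 ± 0.18), Amn, the anchor of the uptake receptor cubilin, from 179 ± 52.01 to 0.229 ± 0.141 CPM (-9.39 ± 0.17), and Cubn itself from 918 ± 171 to 2.403 ± 0.846 CPM (-8.63 ± 0.21). Afp, which the fetal liver also makes, kept 30.1 ± 6.49 CPM at E9.5 after 258 ± 62.5 CPM (-3.07 ± 0.17), and Lrp2, which is also a neural tube gene, kept 68.8 ± 6.605 CPM (-1.93 ± 0.085). Of the gut endoderm list, 9 fell and 5 rose. Ihh (-4.67 ± 0.22) and Foxa3 (-4.46 ± 0.26), which visceral endoderm expresses too, fell, and the part of that tissue in them was not tested. Onecut1 (3.62 ± 0.37) and Prox1 (1.35 ± 0.16), of the liver bud, rose, as did Nkx2-3 (2.16 ± 0.29).

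Trophoblast genes were mostly lower at E9.5 too. Elf5 fell from 31.5 ± 5.56 to 0.291 ± 0.226 CPM (-6.57 ± 0.27), Ascl2, an imprinted trophoblast factor, from 18.1 ± 5.22 to 0.241 ± 0.115 CPM (-6.19 ± 0.32), and Cited1 from 193 ± 32.7 to 11.2 ± 1.99 CPM (-4.09 ± 0.11). The part of trophoblast in the falls of Cdx2, Esrrb and Zfp42 described above was not tested. Of 15 trophoblast genes tested, 11 fell and 2 rose. The pair that rose is Pcdh12, which endothelium also expresses (3.24 ± 0.21), and Prl3b1, with 0 counts at E7.5 and 0.778 ± 0.331 CPM at E9.5 (at least 30.8-fold higher). In the maternal list 4 of 12 tested members fell, 1 rose and 7 were not called, while 36.1% of all genes were called lower and 73.1% called in either direction. The list as a whole was thus not called lower more often than all genes. Prl8a2, a hormone gene of the decidua, measured 63.8, 63.4, 120.3, 102 and 69.3 CPM at E7.5 and 0.105, 0.336, 1.84, 0.248 and 5.43 CPM at E9.5 (-5.68 ± 0.65). Of the parietal endoderm genes, 6 of 12 fell and 2 rose, with a median of -0.43 and sums of 1464 to 2057 CPM at E7.5 and 1146 to 1367 CPM at E9.5.

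The imprinted genes did not move as a group, with 11 of 19 higher, 4 lower and a median of 0.19. Phlda2, a placental growth restrainer, measured 211, 224, 222, 197 and 193 CPM at E7.5 and 1.999, 2.01, 2.57, 2.04 and 1.73 CPM at E9.5 (-6.67 ± 0.074). Plagl1, a zinc finger factor, rose from 13.7 ± 2.98 to 251 ± 22.7 CPM (4.22 ± 0.11), Mest from 435 ± 48.1 to 2124 ± 62.9 CPM (2.29 ± 0.06) and Grb10 from 788 ± 81.5 to 1699 ± 94.8 CPM (1.11 ± 0.054). The neighbours H19 and Igf2 moved apart, H19 falling from 4299 ± 440.2 to 2552 ± 222 CPM (-0.75 ± 0.058) and Igf2 rising from 995 ± 38.95 to 1399 ± 147 CPM (0.49 ± 0.064).

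Among Wnt ligands, 10 of 19 rose and 6 fell. Wnt8a, of the streak, fell from 31.3 ± 4.86 to 0.406 ± 0.167 CPM (-6.36 ± 0.21) and Wnt3a from 23.1 ± 5.87 to 6.82 ± 1.001 CPM (-1.73 ± 0.11), while Wnt1, of midbrain and dorsal neural tube, went from 1 to 359 counts, a level 658-fold (95% interval 117 to 26046) higher for counting error only, and Wnt7a and Wnt8b rose by 4.03 ± 0.23 and 5.58 ± 0.38. Of the Wnt feedback genes, Sp5 fell from 34.98 ± 3.79 to 6.101 ± 2.22 CPM (-2.57 ± 0.14) and Dkk1 from 18.7 ± 1.51 to 6.56 ± 1.27 CPM (-1.52 ± 0.12), and Lef1 was not called (-0.16 ± 0.093). Of 20 FGF pathway genes, 9 rose and 11 fell. Fgf3, Fgf4 and Fgfr4 fell, with log2 fold changes of -4.23 ± 0.20, -3.89 ± 0.22 and -2.82 ± 0.13, and the FGF feedback genes Spry4 and Etv4 fell too, at -1.34 ± 0.081 and -1.61 ± 0.10, while Fgf18 and Fgf9 rose by 3.11 ± 0.24 and 2.26 ± 0.24. In the BMP list 11 of 16 fell, such as Bmp2 (-2.37 ± 0.12) and the inhibitory Smad6 (-1.34 ± 0.11), and the pair that rose is Grem1 and Id4 (2.27 ± 0.16).

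Notch genes rose in 14 of 20 members. The receptor gene Notch3 rose from 41.2 ± 5.202 to 139.5 ± 19.2 CPM (1.76 ± 0.11), the ligand gene Jag1 from 25.3 ± 5.66 to 64.8 ± 1.38 CPM (1.396 ± 0.10), and the target gene Heyl from 0.437 ± 0.175 to 13.05 ± 0.592 CPM (5.07 ± 0.20). Hes1 was not called (-0.087 ± 0.078). The Hedgehog coreceptors Gas1, Cdon and Boc rose by 1.86 ± 0.057, 1.85 ± 0.08 and 2.15 ± 0.11, and the effector Gli1, a direct target of the pathway, from 21.4 ± 4.18 to 53.4 ± 2.84 CPM (1.35 ± 0.11). Ihh and Foxf1, of extraembryonic tissue and lateral mesoderm, fell, with log2 fold changes of -4.67 ± 0.22 and -1.904 ± 0.15. In the retinoic acid pathway, Aldh1a2, the main synthetic enzyme of this stage, fell from 132 ± 27.5 to 50.4 ± 3.705 CPM (-1.38 ± 0.14), and the degrading enzymes exchanged, with Cyp26a1 falling from 69.6 ± 11.3 to 9.01 ± 1.06 CPM (-2.94 ± 0.11) and Cyp26b1 rising from 0.818 ± 0.357 to 30.6 ± 1.92 CPM (5.23 ± 0.20). The carrier genes Crabp1 and Crabp2 rose to 312 ± 17.3 and 314 ± 31.3 CPM. The orphan receptor gene Nr2f1 measured 0.322, 0.33, 0.328, 0.617 and 0.236 CPM at E7.5 and 166, 165, 145, 125 and 149 CPM at E9.5 (8.82 ± 0.12), and Nr2f2 rose from 8.42 ± 1.88 to 122 ± 6.02 CPM (3.92 ± 0.086). Both encode COUP-TF proteins, which bind retinoic acid response elements.

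Of 18 listed epithelial and mesenchymal genes, 10 fell and 7 rose. Cdh1 (E-cadherin) measured 389.9, 376, 377, 392 and 397 CPM at E7.5 and 33.9, 30.8, 35.2, 33.98 and 33.5 CPM at E9.5 (-3.53 ± 0.054), and Cdh2 (N-cadherin) rose from 74.4 ± 13.9 to 236 ± 13.3 CPM (1.68 ± 0.076). Epcam (-2.24 ± 0.059), the keratin genes Krt8 (-2.78 ± 0.10) and Krt18 (-2.795 ± 0.091), and the claudin genes Cldn6 (-3.08 ± 0.09) and Cldn7 (-3.29 ± 0.11) fell. Vim (1.58 ± 0.065), Zeb1 (2.82 ± 0.086) and Twist1 (1.98 ± 0.089) rose. Fn1, which both tissues make, fell from 833 ± 62.1 to 576 ± 36.7 CPM (-0.53 ± 0.063). The keratin genes also mark trophoblast and visceral endoderm, whose lists fell, and their part was not tested. Collagen genes rose in 16 of 20 members. Col3a1 measured 7.72, 4.18, 11.96, 5.400 and 14.3 CPM at E7.5 and 390.1, 397, 364, 319 and 312 CPM at E9.5 (5.38 ± 0.34), and Col2a1, of cartilage and notochord, rose from 21.4 ± 3.97 to 254 ± 51.4 CPM (3.601 ± 0.18), whereas the basement membrane genes Col4a1 and Col4a2 fell, with log2 fold changes of -0.55 ± 0.09 and -0.30 ± 0.10.

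Metabolic genes shifted by smaller amounts. Of 23 glycolysis and hypoxia genes, 19 fell and 2 rose, with a median of -0.70. The glucose transporter gene Slc2a3 measured 3166, 3335, 3178, 2629 and 2666 CPM at E7.5 and 246, 286, 319.9, 295 and 228 CPM at E9.5 (-3.44 ± 0.089), and Slc2a1 fell from 1090.2 ± 116 to 317 ± 34.2 CPM (-1.78 ± 0.091). Ldha fell from 2855 ± 186 to 1673 ± 75.02 CPM (-0.77 ± 0.048), Adm from 25.4 ± 27.1 to 1.32 ± 0.406 CPM (-4.23 ± 0.82), and Hk1 and Pdk1 rose by 0.61 ± 0.074 and 0.39 ± 0.068. Of amino acid supply genes, 14 of 18 fell, with Slc7a3 (-3.37 ± 0.14), Gldc (-2.13 ± 0.07) and Psph (-2.05 ± 0.075) lowest, and the cystine transporter gene Slc7a11 rose from 0.417 ± 0.182 to 8.26 ± 2.03 CPM (4.44 ± 0.23). Mitosis and replication genes summed to 7836 to 8363 CPM at E7.5 and 7675 to 8539 CPM at E9.5, and no tested member moved 2-fold. Mki67 rose most, by 0.67 ± 0.052, and Cdk1 fell most, at -0.58 ± 0.081. The cyclin gene Ccnd2 rose from 218 ± 18.8 to 695 ± 17.4 CPM (1.67 ± 0.063), while Ccne1 fell (-0.70 ± 0.051).

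Ribosomal and respiratory genes were lower at E9.5, and so was the median of all short gene models. Of 34 ribosomal protein genes, 32 fell and none rose (median -0.55). Of 26 nuclear genes of the respiratory chain, 23 fell (median -0.37), and all 13 mitochondrially encoded genes fell (median -0.85). Rplp1 fell from 1601 ± 270.1 to 735 ± 124 CPM (-1.12 ± 0.053) and mt-Co1, a subunit of cytochrome oxidase, from 11419.9 ± 2832 to 6085 ± 537 CPM (-0.89 ± 0.15). Over all tested genes the median log2 fold change was -0.47 for models of 500 to below 1000 nucleotides, -0.29 from there to below 2000, -0.092 from there to below 4000 and 0.22 for longer models. The median exonic length was 1692.5 nucleotides in the ribosomal list, 2006.5 in the nuclear respiratory list and 784 in the mitochondrial list. Each list median thus lay below the median of all models in the same length range. The ribosomal medians by line were -0.69 in the Oct4 line and -0.33 in the Nanog line, and the mitochondrial ones -1.18 and -0.33. The part of transcript length in these shifts was not tested.

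Few genes went from 0 counts in all pools of a stage to at least 1 CPM in each pool of the other. A total of 10 were at 0 at E7.5, 7 of them protein-coding with a named symbol, among them Sst, Trdn, Mstn, Myog, St18 and Neurod4. Sst, the somatostatin gene, reached 2.26 ± 1.02 CPM, at least 89.6-fold higher, and Mstn, a restrainer of muscle growth, 2.18 ± 0.692 CPM, at least 86.2-fold higher. A total of 22 were at 0 at E9.5, 14 of them protein-coding and named, among them Apoc3 (at least 94.3-fold lower), the fatty acid binding gene Fabp1 (at least 118-fold lower) and the placental cathepsin Cts7 (at least 134.5-fold lower). The 2 totals cannot be compared directly, because the E9.5 pools together were shallower. A sum of 3 counts over the group equals 0.0462 CPM at E9.5 and 0.0252 CPM at E7.5. Among the strongest falls of abundant genes outside the lists, Spink3, a protease inhibitor gene, went from 353 ± 67.6 to 0.48 ± 0.368 CPM (-9.34 ± 0.24) and Vrtn from 78.3 ± 3.996 to 0.108 ± 0.0244 CPM (-9.405 ± 0.11). Tex19.1, a germ line and placental gene, fell from 39.1 ± 8.01 to 0.0913 ± 0.0794 CPM (-8.82 ± 0.24). Nr2e1, a nuclear receptor of the forebrain, had 3 counts at E7.5 and 883 at E9.5, a level 539-fold (95% interval 184 to 2619) higher for counting error only.

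The 95% interval of the log2 fold change lay within 0.25 of 0 for 1147 of 13504 named protein-coding genes (8.49%). The most abundant of these were Eef1a1 (9591 to 9308 CPM), Ptma (2774 to 2779 CPM), Tuba1b (2638 to 2536 CPM), Eif4g2 and Nap1l1, genes of translation, chromatin and the cytoskeleton. Eif4g2 changed by -0.014 ± 0.041 in the Oct4 line and 0.25 ± 0.05 in the Nanog line, and Nap1l1 by -0.25 ± 0.043 and 0.094 ± 0.053, and in both genes the difference between lines was called (adjusted p = 0.015 and 0.0057).

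The stage difference was tested for a difference between the lines, and 2517 of 16085 genes (15.6%) were called, 1231 with the larger log2 fold change in the Oct4 line and 1286 with the smaller. The Oct4 line alone called 11816 genes between stages and the Nanog line 9467. Hba-a2 was the globin gene with a called difference, changing by 5.63 ± 0.42 in the Oct4 line and 1.31 ± 0.46 in the Nanog line (difference 4.32 ± 0.61, adjusted p = 0.0078), while Hba-a1, its near copy, changed by 2.16 ± 0.50 and 1.47 ± 0.61. Nanog changed by -4.56 ± 0.22 in the Oct4 line and -3.24 ± 0.22 in the Nanog line (difference -1.33 ± 0.34, adjusted p = 0.02). The part of the uninduced Nanog transgene in this difference was not tested. Hes5 (5.12 ± 0.19 and 3.72 ± 0.28) and Hoxd3 (4.69 ± 0.10 and 3.52 ± 0.14) rose more in the Oct4 line (adjusted p of the difference 0.037 and 0.0024). In the ribosomal list 19 of 34 members were called as different, and 18 of these fell further in the Oct4 line, and in the mitochondrial list 9 of 13 members, all falling further in the Oct4 line. Among all genes above the level set for naming, Pde1c (3.502 ± 0.70 and -1.100 ± 0.86), Lars2 (1.57 ± 0.25 and -0.80 ± 0.32), Olig3 (4.72 ± 0.30 and 2.64 ± 0.38) and Gja5 (5.62 ± 0.20 and 3.95 ± 0.26) had the largest positive differences beside Hba-a2. Sec61g (-1.41 ± 0.12 and 0.76 ± 0.15), Unc13d (-1.97 ± 0.14 and -0.24 ± 0.19), H2-T23 (-1.31 ± 0.15 and 0.38 ± 0.20), Fau (-2.37 ± 0.17 and -0.72 ± 0.21) and Rps27a (-1.83 ± 0.11 and -0.25 ± 0.13) had the largest negative ones. Gja5 encodes a connexin of arteries and atria, and Fau and Rps27a encode ribosomal proteins. The heart muscle, visceral endoderm, trophoblast, neuron and somite lists had no member with a called difference. At E7.5 the Oct4-line libraries held 29.4 to 42.3 M counts and the Nanog-line libraries 6.59 to 8.54 M, and with each library thinned to the smallest total 2016 of 14544 genes were called, 1769 of them also among the 2517. Hba-a2, Nanog and Hoxd3 were called with the thinned counts, whereas Hes5 (difference 1.19, adjusted p = 0.137), Gja5 (0.97, adjusted p = 0.312) and Pde1c (4.67, adjusted p = 0.0751) were not. The count of 2517 also rested on single libraries: it was 4032 without Oct4 E7.5 replicate 1, 1639 without Oct4 E9.5 replicate 2, 1200 without Nanog E7.5 replicate 3, and 1237 and 1356 without Nanog E9.5 replicates 2 and 3.

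**Figure D5:**
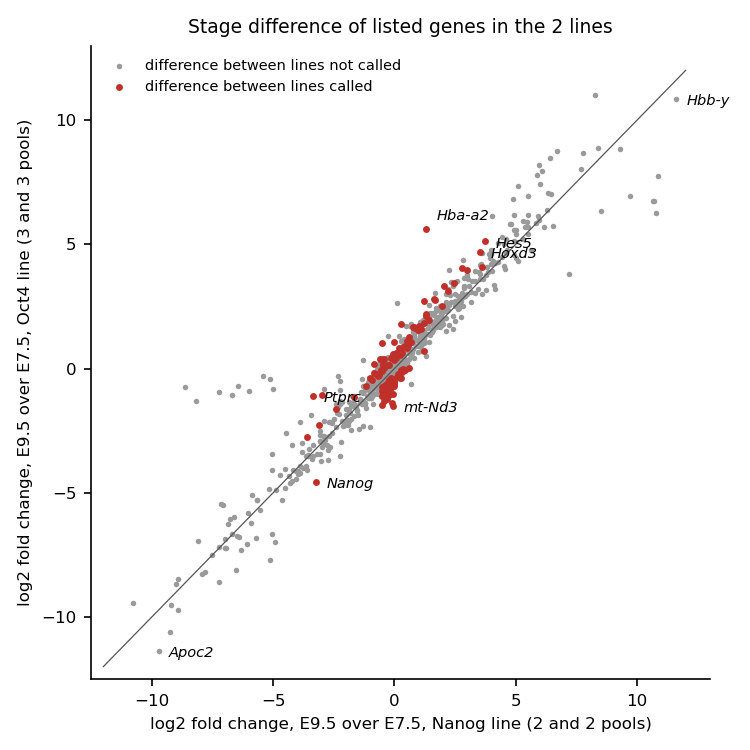
Log2 fold change between stages in the Oct4 line (y axis) against that in the Nanog line (x axis) for 768 tested list members with more than 3 counts in both stages, with the line of equality. Red points (122) were called as different between lines, and 709 of the 768 have the same sign in both; Hba-a2 lies above the line and Nanog below it.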

How the data were processed

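RNA from whole-embryo pools was sequenced. The authors deposited 1 table of expected counts per gene for all 22 libraries, made with RSEM 1.17 on build NCBIM37, with cutadapt, Picard and limma also named, per the submitters' processing notes. Strand and trimming settings are not given in the sources used here. The 10 control columns were rounded to whole counts. Genes passing filterByExpr (edgeR 4.0.16, R 4.3.3) were TMM scaled and tested by the robust quasi-likelihood F test, two-sided, with line as covariate. Within-line and line-difference contrasts came from a model of 4 group means. On simulated data, 93% of 2-fold and 100% of 4-fold changes among 200 genes were recovered, with 4.93% false calls. The simulation changed only these 200 of 16085 genes, drawn above a minimum level, equally up and down and without a line effect. Its rates therefore do not carry over to low genes or to the real comparison, where most genes were called. TPM used exonic lengths of GENCODE M1. No 2 replicates agreed within sampling noise (chi-square per degree of freedom 3.02 to 32.6). Floors and the intervals of count ratios cover counting error only.

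The members and the 56 lists (833 genes, 821 matched to 1 ID) were chosen with earlier results of these data known. Genes named by rule were the 15 highest and 15 lowest log2 fold changes at 10 CPM or more without overlap, up to 6 list members by change and 3 by level, minority-direction members, 5 line differences per direction and the 5 most abundant steady genes. Some other list members were named after their values were seen, and some genes that the rule names are not reported here. Alternatives covered scaling, filters, tools (DESeq2 1.42.0, limma-voom 3.58.1), thinning, blocks and leaving out each pool.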

Additional observations from a re-analysis of the deposited data

Results flagged for a closer look

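Among 26 groups of 5 pools examined for a pool far from the rest by Dixon's test, which marks about 1 group in 20 by chance, 1 stood out: the maternal marker list summed to 46.7 CPM in Oct4 E9.5 replicate 3, against 6.62 to 14.6 CPM in the other E9.5 pools. Gzmd, a granzyme gene of uterine killer cells, measured 6.99 CPM in that pool.

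For the genes below the stage difference itself differed between the lines (adjusted p under 0.05, edgeR's quasi-likelihood test of the interaction), and the value is the log2 fold change in the Oct4 line minus that in the Nanog line. Larger values in the Oct4 line were found for Pde1c (4.60), Hba-a2 (4.32), Lars2 (2.37), Olig3 (2.07), Csf1r (1.92), Gja5 (1.68), Nkx2-5 (1.52), Myocd (1.49), Hes5 (1.39), Hoxd3 (1.17), Tbx20 (1.01) and Tie1 (1.0). Smaller positive differences were found for Col2a1 (0.97), Gata2 (0.85), Sp5 (0.84), Tet2 (0.82), Prox1 (0.78), Foxf1 (0.77), Irx3 (0.62), Gli1 (0.58), Notch3 (0.53), Smad6 (0.50), Jag1 (0.49), Tet3 (0.48), Nr2f2 (0.45), Msx2 (0.44), Tet1 (0.36) and Igf2 (0.31). Lower values in the Oct4 line were found for Sec61g (-2.16), Unc13d (-1.73), H2-T23 (-1.69), Fau (-1.65), Rps27a (-1.58), Nanog (-1.33), mt-Co1 (-0.80), Smad2 (-0.49), Cdk1 (-0.44), Nap1l1 (-0.34) and Eif4g2 (-0.27). Depth differs between the lines at E7.5. With each library thinned to the smallest total, all 39 differences kept their direction and 26 were called. The differences of Foxf1, Gata2, Gja5, Hes5, Jag1, Msx2, Nkx2-5, Nr2f2, Pde1c, Prox1, Smad2, Sp5 and Tet1 were not called with those counts.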

How the results depend on the processing

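Of 297 genes named and tested, 264 were called, of which 260 were tested in each alternative. Of the 260, 248 stayed called in each alternative other than the test against a 2-fold change. The calls of Hbb-b2, Ina, H2-T23, Col4a2, Urod, Irx3, Adm, Cdh5, Hba-a2, Nkx2-5, Rps27a and Unc13d were lost in at least 1 of those other alternatives. Leaving out 1 pool brought calls for Egfl7, Irx5, Lars2, Lef1, Nap1l1, Nr5a2, S100a8, Smad2 and Snai1. That test (edgeR's glmTreat) called 3378 genes, 1821 higher and 1557 lower. Scaling by library totals called 6981 genes higher and 4710 lower. In the Nanog line alone the log2 fold changes of H2-T23 (0.38), Pde1c (-1.10) and Sec61g (0.76), among others, had the opposite sign. Lars2 and Nap1l1 (0.68 and -0.11 over both lines, not called) also changed sign in the within-line contrasts given above. A model over all 22 libraries called 1132 genes for the difference between lines. The causes were not tested. Leaving out 1 pool at a time gave 11090 to 11975 called genes (5609 to 6030 higher, 5481 to 5993 lower), of which 1044 to 1283 were at least 4-fold higher and 1040 to 1184 at least 4-fold lower, and gave 1200 to 4032 for the difference between lines. With the replicate number as a block, 11049 genes were called, 11006 of them also called without it. The deviations of same-numbered pools of the 2 stages had correlations of -0.0025 to 0.019. In the Oct4 line replicate 1 correlated better with another number (0.013) than with its own, and the other replicates correlated best with their own. With 2 Nanog-line pools per stage, the values for own and other number mirror each other by construction and carry no information. Whether the numbers pair the pools therefore cannot be decided from these correlations. Gene models under 200 nucleotides were left out as an alternative chosen after seeing the data, and 11704 of the called genes were shared. Depth limits the low genes, mainly in the Nanog E7.5 libraries (6.59 and 8.54 M counts) and in Oct4 E9.5 replicates 1 and 3 (8.97 and 7.72 M counts).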

Other observations

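Target genes of p53, the stress-response factor, were not described above. Of 17 tested, 8 rose and 6 fell, and their summed level was 536 to 584 CPM in the E7.5 pools and 537 to 582 CPM in the E9.5 pools. The death receptor gene Fas (2.58 ± 0.42) and the kinase gene Plk2 (2.56 ± 0.094) rose at least 4-fold, whereas the BH3-only gene Pmaip1 (Noxa) fell from 25.1 ± 2.504 to 5.84 ± 1.14 CPM (-2.12 ± 0.12) and the cell cycle inhibitor gene Cdkn1a also fell (-0.73 ± 0.12). Immediate early genes, which respond to handling as well as to growth factors, summed to 92.3 to 112 CPM at E7.5 and 78.2 to 116 CPM at E9.5. Within them Junb (-2.19 ± 0.15), Ier3 (-2.19 ± 0.24) and Fos (-2.01 ± 0.30) fell and Jun rose (1.32 ± 0.16). Of 10 heat shock genes, 5 fell and 0 rose by edgeR's adjusted p. Hspb1 fell from 19.2 ± 2.85 to 10.3 ± 3.29 CPM (-0.93 ± 0.17) and Hsp90aa1 from 4064 ± 581 to 2328 ± 364 CPM (-0.81 ± 0.13).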
